A study of Mus musculus with 6 samples.

Results

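The genes described here are 8 genes of fast transcriptional and stress responses: Csrnp1, Ikzf4, the immediate early response genes Ier2, Ier3 and Ier5, and the GADD45 genes Gadd45a, Gadd45b and Gadd45g. They were measured by RNA-seq in muscle stem cells (MuSCs), the cells that regenerate skeletal muscle. They were found by gene symbol among the 22706 genes of the deposited table, and all 8 passed the minimum mean value of 5 that 15915 genes reached. The members were chosen on their low values in mdx and their higher values in Sirt6mKO/mdx, so these differences are given below as descriptions with no p-value, and the counts of their calls are not evidence. Only the comparison of Sirt6mKO/mdx with control was tested for them, and it uses the same libraries as the other comparisons.

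Cells came from control (wild type) mice, mdx mice and Sirt6mKO/mdx mice, with 2 libraries in each of the 3 groups. The labels give C57BL/6 as the strain of every group. Per the study's methods, mdx mice were of the line C57BL/10ScSn-Dmdmdx/J, which carries a loss-of-function mutation of the dystrophin gene. In Sirt6mKO mice a constitutively active Cre recombinase under the Pax7 promoter removes floxed exons of Sirt6, a histone deacetylase of the sirtuin family, so the deletion reaches the whole skeletal muscle lineage and not MuSCs alone. Muscle was digested with dispase and collagenase, cells carrying Sca1, CD45 or CD31 were depleted, and MuSCs were sorted as Integrin-a7+/CD34+ cells or by a reporter. The study's methods describe the replicates of RNA-seq as biological and its legends describe adult male mice, while the labels give neither the animals nor their age behind each library.

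As background, the 3 GADD45 proteins are small nuclear stress sensors that bind MAP3K4, PCNA, CDK1 and p21 and are induced by DNA damage, growth arrest and cytokines. The IER genes belong to the early genes whose transcripts appear within a short time of a growth factor or stress signal and decay fast. Csrnp1 encodes a nuclear protein of the cysteine- and serine-rich family, first described as induced by Axin, and Ikzf4 encodes Eos, a zinc finger repressor of the Ikaros family known best from regulatory T cells.

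The stretches just before the RefSeq start sites (build GRCm38.p6) are shown for the 4 members whose promoters held one of the motifs searched. Capitals mark the motif, and positions count back from -1, the base before the start site.
Csrnp1 (chr9:119983024-119983173, minus strand): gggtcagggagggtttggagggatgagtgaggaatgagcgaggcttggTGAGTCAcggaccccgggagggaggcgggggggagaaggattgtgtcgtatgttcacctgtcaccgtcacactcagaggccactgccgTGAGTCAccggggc
Ier3 (chr17:35821563-35821712, plus strand): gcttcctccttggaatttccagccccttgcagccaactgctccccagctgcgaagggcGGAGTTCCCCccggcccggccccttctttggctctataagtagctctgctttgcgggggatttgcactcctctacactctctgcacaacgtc
Gadd45b (chr10:80929971-80930090, plus strand): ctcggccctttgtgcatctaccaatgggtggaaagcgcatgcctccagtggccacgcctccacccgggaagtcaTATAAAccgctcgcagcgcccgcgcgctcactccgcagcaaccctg
Gadd45g (chr13:51846555-51846674, plus strand): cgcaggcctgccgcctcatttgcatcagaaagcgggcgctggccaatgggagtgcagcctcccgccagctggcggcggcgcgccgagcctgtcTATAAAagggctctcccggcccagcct

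The motifs searched on both strands were the CArG box, the kappaB site, TGANTCA (AP-1), TGACGTCA (CRE), GCGGGGGCG (EGR) and the TATAAA letters of the core promoter, in windows of 250 bases before to 50 bases after each start. Entries were found for 6 of the 8 members. Csrnp1 held TGAGTCA, the AP-1 motif, from -102 to -96 and again from -14 to -8, in 1 of its 4 windows. That start lies 5773 bases upstream of the gene start in the deposited table. An AP-1 match was present in 7.81% of all 32851 promoter windows. Ier3 held a kappaB match on the minus strand from -92 to -83, which 4.51% of windows hold. The letters TATAAA stood at -46 to -41 in Gadd45b and at -27 to -22 in Gadd45g, against 13.6% of windows. The CArG box (1.63% of windows), CRE (1.79%) and EGR (2.91%) motifs were not in these windows, and Ier5 and Gadd45a held none of the 6. TGANTCA reads the same on both strands and each such match was counted once. A match describes letters and not a bound site.

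Each library held approximately 4397632 to 9745218 reads, with 18983 to 20614 genes detected. Values are normalized read counts, that is, reads divided by a size factor per library and rounded by the authors. The MuSC label was checked by 11 markers, of which Pax7, the defining transcription factor, was at 2754 and 2932 in control, against 2167 and 2521 in mdx and 3236 and 2433 in Sirt6mKO/mdx. Sirt6 itself was at 41 and 32 in control, against 33 and 40 in mdx and 37 and 30 in Sirt6mKO/mdx. A lower level was not detected in the libraries labelled Sirt6mKO/mdx, and every direction for this group rests on its label. The value is per gene and not per exon, so it does not test the deletion itself. Dmd, the gene mutated in mdx, was at 2573 and 2743 in control and between 2038 and 2883 in the other libraries. Xist, expressed from the inactive X of female cells, was at 16772 and 12950 in control and at 7 to 34 in the other libraries, while Y-linked Ddx3y was at 3 and 8 against 1024 to 1767. The study describes male mice for these genotypes, which the control values go against. Genotype and the sex of the animals therefore cannot be told apart in any difference from control. In bulk RNA, fewer cells expressing a gene and less RNA per cell cannot be told apart either.

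In the main fit Csrnp1 had the largest difference between mdx and control among the members. Without mdx replicate 2 that of Ikzf4 was larger, at -6.34 against -6.05 on the log2 scale. Csrnp1 (ENSMUSG00000032515, GRCm38 chr9:119971166-119977250, minus strand) had normalized read counts of 3859 and 3294 in control, against 53 and 68 in mdx and 1679 and 1577 in Sirt6mKO/mdx. No group overlapped another: control was highest, mdx lay far below and Sirt6mKO/mdx stood between them. The mean in mdx was 1.69% of the control mean and that in Sirt6mKO/mdx was 45.5% of it. On the log2 scale the difference between mdx and control was -5.87 (SE 0.24), the third lowest of 15915 genes, and that between Sirt6mKO/mdx and mdx was 4.74 (SE 0.24), the fourth highest. The gene lies within the span of Cx3cr1, a chemokine receptor gene on the same strand, but shares no exonic base with it, and Cx3cr1 was at 0 to 17 in every library.

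Ikzf4 followed the same order at a much lower level. It (ENSMUSG00000002578, chr10:128630843-128645991, minus strand) was at 181 and 143 in control, against 1 and 8 in mdx and 130 and 115 in Sirt6mKO/mdx. The mdx libraries were almost empty of its reads, while the libraries of the other groups lay close to each other. Recovered by the size factors, about 12 reads stood behind the mdx value, against 305 in control and 146 in Sirt6mKO/mdx. The ratio of control to mdx was 36.5, with a 95% exact interval of 20.6 to 71.4 that covers counting error only. The ratio of Sirt6mKO/mdx to mdx was 28.9 (16.1 to 57.3). With so few reads in mdx the fitted log2 differences of -5.25 and 4.86 (SE 0.61 each) moved with the library left out: leaving out mdx replicate 1 gave -4.17 and 3.78, and leaving out mdx replicate 2 gave -6.34 and 5.95. An opposite-strand lincRNA gene, Gm26876, overlaps 37 bases of its exons (0.617%) and was at 11 or less.

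**Figure D1:**
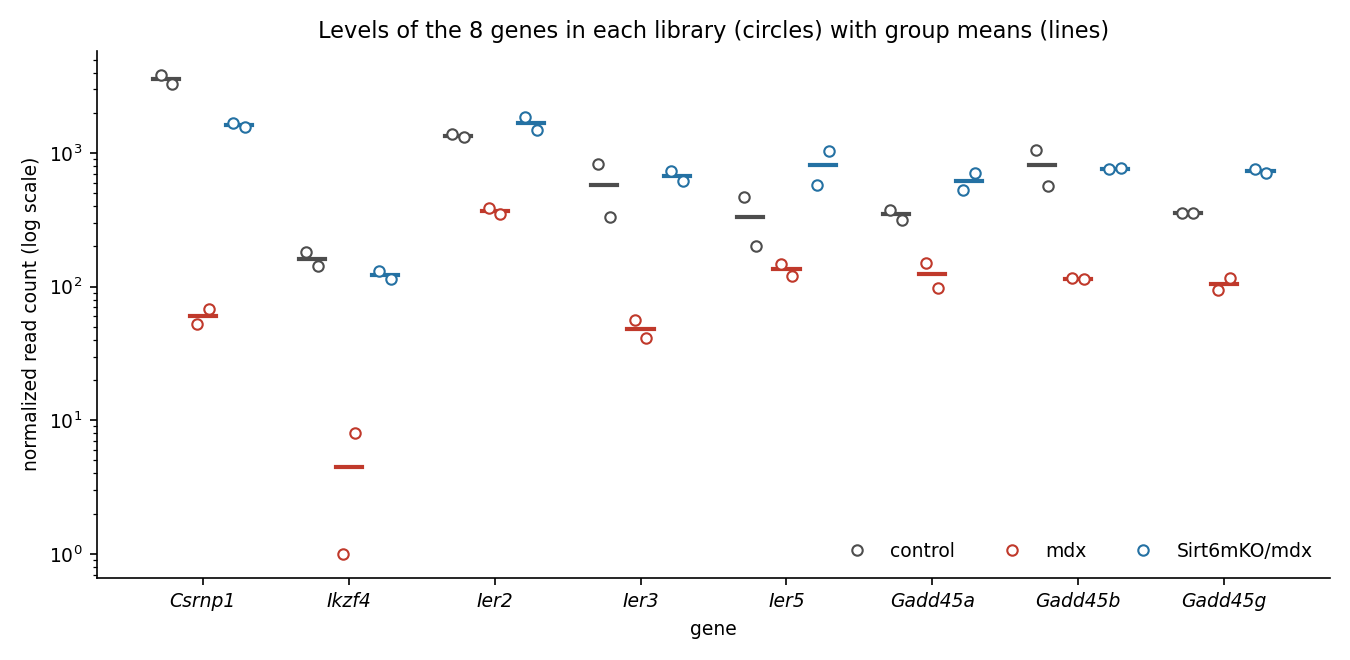
Normalized read counts (log axis) of the 8 genes in the 6 libraries, with circles for libraries and lines for group means (n = 2). In each gene both mdx circles lie below all circles of control and Sirt6mKO/mdx, from 1 and 8 for Ikzf4 to 385 and 350 for Ier2.

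Among the IER genes, Ier3 had the largest differences between mdx and each of the other groups. Ier3, also known as IEX-1, is linked to survival and ERK signalling (ENSMUSG00000003541, chr17:35821684-35822923, plus strand). It was at 826 and 335 in control, against 56 and 41 in mdx and 735 and 622 in Sirt6mKO/mdx. The control libraries differed from each other by 2.47-fold and enclosed both Sirt6mKO/mdx libraries, while mdx lay below all of them. The mdx mean was 8.35% of control, a log2 difference of -3.43 (SE 0.36) that came to -2.78 when control replicate 1 was left out and to -4.08 when control replicate 2 was. Against mdx, Sirt6mKO/mdx was 3.79 higher (SE 0.36).

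Ier2, which encodes a nuclear regulator of transcription, had the most even replicates of the IER genes in control. It (ENSMUSG00000053560, chr8:84661331-84662852, minus strand) was at 1390 and 1312 in control, against 385 and 350 in mdx and 1854 and 1487 in Sirt6mKO/mdx. Both Sirt6mKO/mdx libraries lay above both control libraries, and mdx lay far below. The mdx mean was 27.2% of control, with log2 differences of -1.88 against control and 2.17 from mdx to Sirt6mKO/mdx (SE 0.24 each).

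Ier5, a partner of the phosphatase PP2A and of heat shock factor HSF1, had the smallest difference between mdx and control and, in Sirt6mKO/mdx, the widest spread between replicates. It (ENSMUSG00000056708, chr1:155096367-155099636, minus strand) was at 467 and 201 in control, against 149 and 121 in mdx and 580 and 1035 in Sirt6mKO/mdx. The groups did not overlap, but control replicate 2 came within reach of mdx replicate 1. The log2 difference between mdx and control, -1.18 (SE 0.37), came to -0.58 when control replicate 1 was left out and to -1.79 when control replicate 2 was. Its call was lost under 10 of the 16 alternatives tried. From mdx to Sirt6mKO/mdx it was 2.52 (SE 0.37), and 2.10 without Sirt6mKO/mdx replicate 2, where the call was lost.

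Of the GADD45 genes, Gadd45b, induced by NF-kappaB and TGF-beta signals, had the largest difference in mdx. It (ENSMUSG00000015312, chr10:80930091-80932204, plus strand) was at 1048 and 570 in control, against 116 and 114 in mdx and 761 and 769 in Sirt6mKO/mdx. The Sirt6mKO/mdx libraries fell between the 2 control libraries, and the replicates of mdx and of Sirt6mKO/mdx were within 1.02-fold of each other. The mdx mean was 14.2% of control, with log2 differences of -2.74 against control and 2.72 from mdx to Sirt6mKO/mdx (SE 0.29 each).

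Gadd45g, which in many tissues accompanies differentiation, was the GADD45 gene with the most even controls. It (ENSMUSG00000021453, chr13:51846678-51848468, plus strand) was at 356 and 358 in control, against 94 and 117 in mdx and 765 and 709 in Sirt6mKO/mdx. Every Sirt6mKO/mdx value was close to double a control value, and every mdx value was below both. The mdx mean was 29.6% of control and the Sirt6mKO/mdx mean 206%, with log2 differences of -1.76 and 2.80 (SE 0.25 each) for mdx against control and Sirt6mKO/mdx against mdx.

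Gadd45a, the member of the family best known as a p53 target, was at 376 and 318 in control, against 151 and 98 in mdx and 525 and 704 in Sirt6mKO/mdx. It (ENSMUSG00000036390, chr6:67035096-67037457, minus strand) thus had the same order of groups as Gadd45g, without overlap. The log2 differences were -1.50 and 2.31 (SE 0.29 each). The opposite-strand transcript E230016M11Rik overlaps 337 of its 1764 exonic bases (19.1%) and was at 95 and 51 in control, against 44 and 31 in mdx and 88 and 61 in Sirt6mKO/mdx. Since the use of strand in the counting was not stated, the values of the pair are uncertain.

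Over the group, 8 of 8 members were called lower in mdx than in control, with a median log2 difference of -2.31 (range -5.87 to -1.18). A call needed an adjusted p of at most 0.05 in limma over all tested genes and an absolute log2 fold change of at least 1. Of all tested genes, 14.2% were called in this comparison, 6.89% higher and 7.34% lower, and the median gene stood at 0.00. In Sirt6mKO/mdx against mdx 8 of 8 members were called higher, with a median of 2.76 (range 2.17 to 4.86), where 8.17% of tested genes were called, 5.62% higher and 2.54% lower, and the median gene stood at 0.02. Both counts follow from how the members were chosen, and nothing is read from them. The members spread widely within the calls: in mdx they ranked between the third lowest (Csrnp1) and the 2238th lowest (Ier5), and in Sirt6mKO/mdx between the third highest (Ikzf4) and the 627th highest (Ier2). With libraries rescaled to equal totals the median of all genes in the comparison with mdx moved to -0.58. Under that scaling the members' log2 differences from mdx lay between 1.55 (Ier2) and 4.28 (Ikzf4). With one prior variance for all genes, 0 of the members and 0 of all genes were called in that comparison, where 3156 genes had an unadjusted p under 0.05.

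**Figure D2:**
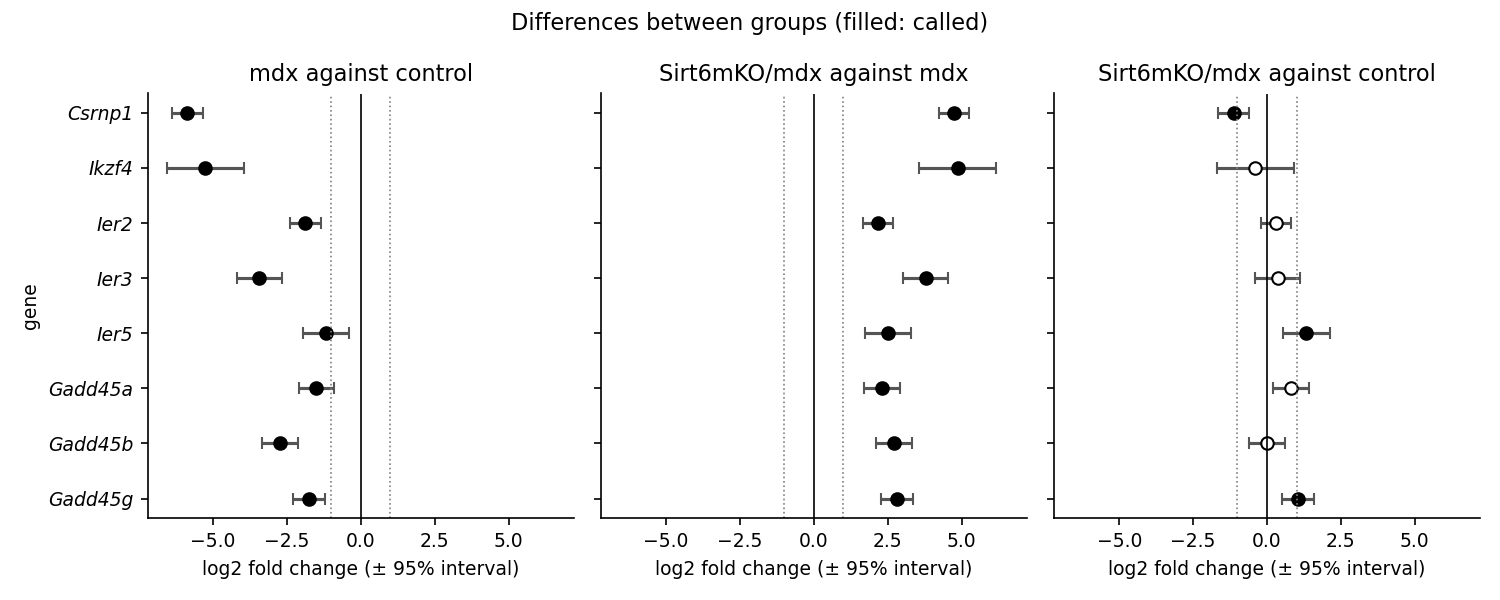
Log2 fold changes of the 8 genes in the 3 comparisons, with 95% intervals from limma as bars, filled circles for called genes and dotted lines at the minimum fold of a call. The values lie from -5.87 to -1.18 in mdx against control, from 2.17 to 4.86 in Sirt6mKO/mdx against mdx, and on both sides of 0 in Sirt6mKO/mdx against control.

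The comparison of Sirt6mKO/mdx with control was not the one the members were chosen on. It shares its libraries with the comparisons that were, so its p-values are not independent of that choice. Csrnp1 remained lower than in control, Ier5 and Gadd45g were higher, and the other 5 genes were not called. The 2 higher and 1 lower calls stood beside a background of 7.87% of tested genes called, 5.19% higher and 2.68% lower. The median log2 fold change of the members was 0.33, with 5 above and 3 below 0, against 0.01 for all tested genes.

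Csrnp1 fell by 1.13 on the log2 scale against control (95% interval -1.65 to -0.61, limma adjusted p = 0.0102), and both libraries labelled Sirt6mKO/mdx lay below both controls. Its call was lost when either of these 2 libraries was left out, with folds of -1.18 and -1.09, and under 4 of the 16 alternatives in all. Gadd45g rose by 1.04 (0.50 to 1.58, limma adjusted p = 0.0190), in 2 of 2 libraries. Its fold was close to the minimum of 1, and it was not called without either control library (1.04 and 1.05) or without either Sirt6mKO/mdx library (0.99 and 1.10). Ier5 rose by 1.34 (0.55 to 2.12, limma adjusted p = 0.0338) and was decided by single libraries, at 0.73 without control replicate 2, 1.94 without control replicate 1 and 0.92 without Sirt6mKO/mdx replicate 2. With equal totals only Csrnp1 was called (-1.74), while Gadd45g was at 0.44 and Ier5 at 0.73. Over the 16 alternatives the call of Gadd45g was lost in 7 and that of Ier5 in 11.

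For the other members the interval sets what these libraries can tell. Gadd45a was 0.81 higher (0.20 to 1.42, limma adjusted p = 0.0916), with both libraries above both controls, and came to 0.21 with equal totals. Gadd45b was at -0.01 (-0.62 to 0.59, limma adjusted p = 0.986), overlapped control and came to -0.62 with equal totals. Ier2 was at 0.30 (-0.22 to 0.81, limma adjusted p = 0.492) and Ier3 at 0.36 (-0.40 to 1.12, limma adjusted p = 0.586), and both signs turned with equal totals, to -0.31 and -0.24. Ikzf4 was at -0.39 with a wide interval (-1.69 to 0.90, limma adjusted p = 0.746), so a difference of more than 2-fold in the lower direction is within it. With equal totals Ikzf4 came to -0.99.

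Levels of different genes were compared per length, as normalized read count per kb of exon. In control the order was Csrnp1 (1030 per kb), Ier2 (888), Ier3 (513), Gadd45b (509), Gadd45g (304), Gadd45a (197), Ier5 (102) and Ikzf4 (27.0). The libraries of Ier3 overlapped those of Gadd45b and Gadd45g, and no other pair of members overlapped. In mdx, Ier2 led at 241 per kb, and Csrnp1 dropped from the first to the seventh place at 17.4 per kb, ahead of Ikzf4 at 0.751. There the libraries of Gadd45a overlapped those of Gadd45b and Gadd45g, and those of Ier3 overlapped those of Ier5. In Sirt6mKO/mdx the order was Ier2 (1098 per kb), Gadd45g (628), Ier3 (600), Gadd45b (481), Csrnp1 (469), Gadd45a (348), Ier5 (246) and Ikzf4 (20.4). Neighbours overlapped for Gadd45g and Ier3, for Gadd45b and Csrnp1 and for Gadd45a and Ier5. Csrnp1 therefore led in control only.

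Within the families, the make-up is given as a description, since the members were chosen on these libraries. The GADD45 sum was 1176 and 844 per kb in control, against 239 and 227 in mdx and 1429 and 1487 in Sirt6mKO/mdx. Gadd45b made up 56.1% and 42.5% of this sum in control, against 30.6% and 31.6% in mdx and 33.5% and 32.5% in Sirt6mKO/mdx, so its share was highest in both control libraries. The share of Gadd45g was 25.8% and 36.2% in control, against 33.6% and 43.9% in mdx and 45.6% and 40.6% in Sirt6mKO/mdx, with overlap between control and mdx. In the IER family, Ier3 took 40.9% and 24.3% in control, against 14.2% and 12.0% in mdx and 31.8% and 29.8% in Sirt6mKO/mdx. Its mdx share was the lowest in both libraries, and Ier2 filled 72.7% and 75.9% of the IER sum there. The IER sum was 1786 and 1220 per kb in control, against 348 and 303 in mdx and 2045 and 1843 in Sirt6mKO/mdx.

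**Figure D3:**
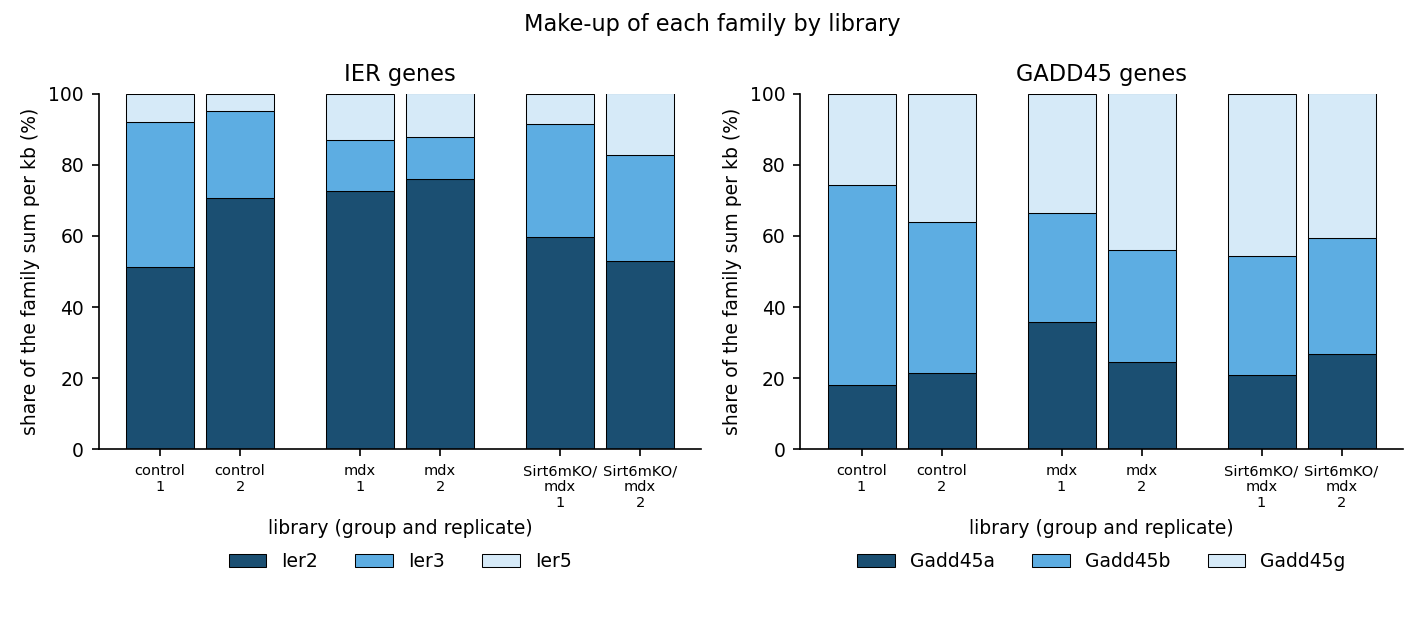
Share (%) of each gene in the sum of normalized read counts per kb of its family, for each of the 6 libraries. Ier3 takes 14.2% and 12.0% of the IER sum in mdx against at least 24.3% elsewhere, and Gadd45b takes at least 42.5% of the GADD45 sum in control against at most 33.5% elsewhere.

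Across the 6 libraries, the 28 pairs of members had correlations of log2 values between 0.68 (Csrnp1 and Ier5) and 0.99 (Ier3 and Gadd45b), with a median of 0.93. These points are libraries of 3 groups and share the choice of the members, so the values only describe how alike the profiles are. Among 9666 genes with a mean of at least 50, the 5 most like Csrnp1 were Dusp8 (r = 0.999), Ppp1r15a (0.998), Mafk (0.998), Nr4a1 (0.997) and Tob1 (0.997). Dusp8, a phosphatase of MAP kinases, was at 447 and 450 in control, against 17 and 19 in mdx and 283 and 227 in Sirt6mKO/mdx. Ppp1r15a, known also as Gadd34, was at 3477 and 3610, at 362 and 369 and at 2105 and 2236 in the same order. An r of at least 0.95 with Csrnp1 was reached by 280 genes. Among the genes most like Ikzf4 were Clk3 (0.997), Has1 (0.994), 1810013L24Rik (0.994) and 1700001L05Rik (0.993). Has1, a hyaluronan synthase, was at 683 and 471 in control, against 31 and 70 in mdx and 624 and 467 in Sirt6mKO/mdx. An r of at least 0.95 with Ikzf4 was reached by 213 genes.

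Of 7 close relatives of the members, 4 were tested and 0 were called by limma in any of the 3 comparisons. In each comparison 1 gene had an unadjusted limma p under 0.05. Beside them, 14.2%, 8.17% and 7.87% of all 15915 tested genes were called in mdx against control, Sirt6mKO/mdx against mdx and Sirt6mKO/mdx against control. In the same order 4930, 4004 and 3828 genes had an unadjusted limma p under 0.05. Csrnp2 was at 131 and 147 in control, against 58 and 86 in mdx and 88 and 84 in Sirt6mKO/mdx, with a log2 fold change of -0.96 in mdx (SE 0.35, limma adjusted p = 0.0735). Csrnp3 was at 2 or less in every library. Ier5l, a relative of Ier5, was at 41 and 34 in control, against 52 and 27 in mdx and 102 and 110 in Sirt6mKO/mdx. Both Sirt6mKO/mdx libraries lay above all others, with log2 fold changes of 1.47 against mdx (SE 0.45, limma adjusted p = 0.0548) and 1.48 against control (SE 0.45, limma adjusted p = 0.0553). It was called higher than in mdx under 7 of the 16 alternatives and higher than in control under 3, so its place outside the calls depends on the setting. With equal totals Ikzf5 was called lower in Sirt6mKO/mdx than in mdx, and Csrnp2 and Ikzf2 (Helios) lower than in control, a scaling under which 18.4% and 16.9% of all tested genes were called lower in these comparisons. These genes were named after their values were seen.

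Among the 8 lists of related genes, that of the immediate early genes had the most calls. Of 25 tested immediate early genes outside the members, 23 were called lower in mdx than in control (median log2 fold change -2.85), 24 higher in Sirt6mKO/mdx than in mdx (median 2.62), and 3 lower in Sirt6mKO/mdx than in control (median -0.31). Of all tested genes, 7.34%, 5.62% and 2.68% were called in these directions. The list was chosen with earlier results of these data known, and its direction is not independent evidence. The largest falls in mdx were those of Atf3 (-5.42), Nr4a1 (-4.96), Nr4a2 (-4.42) and Maff (-4.17), which encode stress and orphan receptor transcription factors. The largest rises in Sirt6mKO/mdx against mdx were those of Nr4a1 (4.17), Nr4a2 (4.16), Atf3 (4.07) and Btg2 (3.79). Against control Atf3 (-1.35), Zfp36 (-1.03) and Nr4a3 (-1.02) were called lower. Only Klf2 and Rhob were not called in mdx, at -0.85 and -0.79, and they were named after their values were seen. With equal totals 21 of the 25 were called higher than in mdx and 9 lower than in control, where 3.01% and 16.9% of all tested genes were. The 3 calls against control came to 0 when either Sirt6mKO/mdx library was left out and to 1 without control replicate 2. The list holds 5 genes of AP-1 subunits (Fos, Fosb, Jun, Junb and Jund), and all 5 were called in mdx from -1.58 (Jund) to -3.81 (Fosb). Whether AP-1 acts on any member in these cells was not tested.

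Of the p53 targets, 6 of 21 tested genes were called lower in mdx and 2 higher, with a median of -0.67, where 7.34% of all tested genes were called lower and 6.89% higher. Btg2 is also counted among the immediate early genes, and Cdkn1a among the nuclear partners below. The largest were Btg2 (-3.75) and Plk2 (-2.05), which restrain or adapt the cell cycle, the death receptor gene Fas (-3.69) and the stress gene Sesn2 (-2.79). Phlda3 (1.81) and Ccng1 (1.27), named after their values were seen, were the 2 higher genes. In Sirt6mKO/mdx against mdx 6 were called higher and 0 lower (median 0.80), where 5.62% of all tested genes were called higher, led by Btg2 (3.79), Plk2 (2.10), Sesn2 (2.06) and Fas (1.78). With equal totals these counts were 4 and 1. The 6 calls came to 2 when either Sirt6mKO/mdx library was left out, to 4 without mdx replicate 1 and to 3 without mdx replicate 2. Against control Fas (-1.91) was called lower, and Phlda3 (1.90) and Trp53inp1 (1.18) higher, where 2.68% of all tested genes were called lower and 5.19% higher. Of these 3 calls, leaving out Sirt6mKO/mdx replicate 2 left 0, and leaving out Sirt6mKO/mdx replicate 1 or control replicate 1 left 1 in the list. Trp53, the gene of p53 itself, was at 452 and 679 in control, against 269 and 210 in mdx and 207 and 266 in Sirt6mKO/mdx. It was called lower in both of the latter groups against control (-1.22 and -1.24), and stood at -0.02 in Sirt6mKO/mdx against mdx (SE 0.28).

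Of 18 upstream regulators, 7 were called lower in mdx and 0 higher (median -0.67), beside the 7.34% of all tested genes called lower. The largest falls were those of Foxo3 (-1.98), Rela (-1.74), Nfkb1 (-1.28) and Trp53. Rela, the NF-kappaB subunit known to induce Gadd45b and Ier3, was at 915 and 603 in control, against 221 and 223 in mdx and 475 and 430 in Sirt6mKO/mdx. The part of Rela in the levels of the members was not tested. In Sirt6mKO/mdx against mdx Foxo3 (1.08) and Rela (1.02) were called higher, where 5.62% of all tested genes were. With equal totals neither gene was called (0.46 and 0.40), while 2 other genes were called lower, beside 18.4% of all tested genes. Against control Foxo1 (-1.32), Elk3 (-1.28) and Trp53 were called lower, beside 2.68% of all tested genes. With equal totals 10 genes were called lower, a scaling under which 16.9% of all tested genes were. Single libraries decided many of these calls. The 7 in mdx came to 3 when either mdx library was left out and to 4 without control replicate 1. The 2 against mdx came to 0 without any 1 of the libraries of mdx or Sirt6mKO/mdx, and the 3 against control came to 0 without either library of Sirt6mKO/mdx.

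The partners through which GADD45 proteins act were read against the 14.2% of all tested genes called in mdx and the 8.17% called in Sirt6mKO/mdx against mdx. In the kinase cascade 1 of 12 tested genes was called lower in mdx, the p38 activator Map2k3 (-1.55). In Sirt6mKO/mdx against mdx 2 of the 12 were called, Map2k3 higher (1.03) and Mapk10 lower (-1.64). Of 9 nuclear partners, Cdkn1a, which encodes p21, was called lower in mdx (-1.89) and Cdk1 higher (1.72), and 1 of these 2 calls was lost without control replicate 1 and without either mdx library. Cdkn1a was at 952 and 531 in control, against 206 and 178 in mdx and 449 and 413 in Sirt6mKO/mdx, a rise of 1.16 over mdx. The calls of both lists in Sirt6mKO/mdx against mdx came to 0 when any 1 of the libraries of these groups was left out. Of 11 PP2A subunits and 12 corepressors of the Ikaros family 0 were called by limma in any comparison, with medians between -0.35 and -0.02. In mdx against control 1 corepressor was called when control replicate 2 was left out. An unadjusted limma p under 0.05 was reached by 4, 1 and 2 of the PP2A subunits and by 3, 0 and 4 of the corepressors. The order is mdx against control, Sirt6mKO/mdx against mdx and Sirt6mKO/mdx against control. Among all 15915 tested genes, 4930, 4004 and 3828 reached such a p in that order. With equal totals no gene of these 4 lists was called higher in Sirt6mKO/mdx, and of their 44 tested genes 8 were called lower than in mdx and 14 lower than in control, where 18.4% and 16.9% of all tested genes were. The 14 were 3 genes of the kinase cascade, 4 nuclear partners, 4 PP2A subunits and 3 corepressors.

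**Figure D4:**
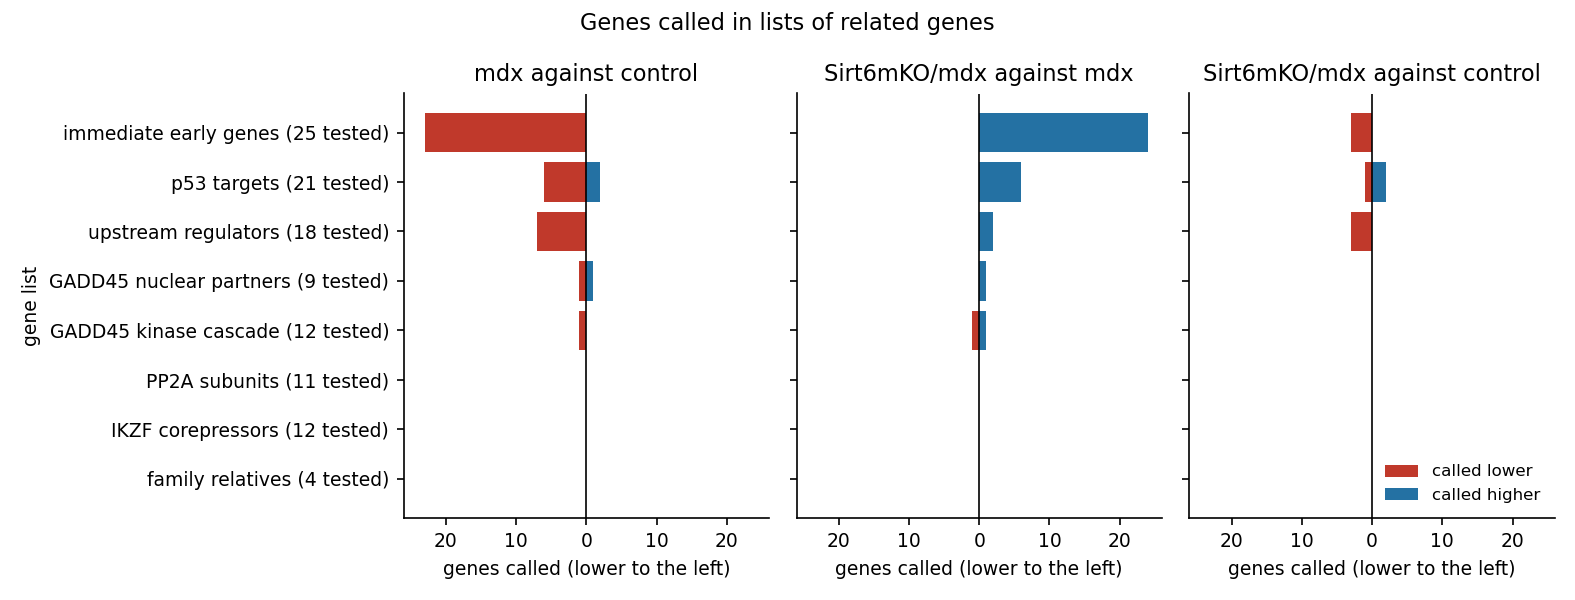
Numbers of genes called lower (left of 0) and higher (right of 0) in 8 lists of related genes, for the 3 comparisons. The immediate early genes stand out with 23 of 25 called lower in mdx and 24 of 25 higher in Sirt6mKO/mdx against mdx, while 0 genes were called in the PP2A and corepressor lists in the fit shown.

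Markers of other cells that a sort could hold were measured beside these results, and their part in them was not tested. For the calls below, the shares of all tested genes were 7.34% lower and 6.89% higher in mdx against control. They were 5.62% higher and 2.54% lower in Sirt6mKO/mdx against mdx, and 5.19% higher and 2.68% lower in Sirt6mKO/mdx against control. The depletion of CD45, CD31 and Sca1 cells would remove most leukocytes, endothelial cells and fibro-adipogenic cells. T cell markers, the cells in which Ikzf4 is best known, summed over the 8 of 10 found to 131 and 61 in control, against 22 and 40 in mdx and 59 and 94 in Sirt6mKO/mdx. The defining gene Cd3d was at 0 in all 6 libraries, Trac was at 3 or less, and 1 of 4 tested markers was called, Cd4 (-2.82 in mdx). Cd4 was at 94 and 43 in control, against 5 and 13 in mdx and 31 and 47 in Sirt6mKO/mdx. Foxp3, which was not called, was at 14 and 9, 2 and 6, and 5 and 6 in the same order. In mdx against control 3 of the 4 tested markers stood below 0 and 1 above. Endothelial markers summed to 940 and 828, 440 and 432, and 646 and 657 in the same order, with 2 of 7 tested called lower in mdx. Myofibre markers summed to 8711 and 10740 in control, against 6621 and 2193 in mdx and 13231 and 6287 in Sirt6mKO/mdx, with 4 of 10 called lower in mdx and 3 higher in Sirt6mKO/mdx. Their sum differed 3.02-fold between the mdx libraries. Their median log2 fold changes were -1.12 in mdx against control and 1.02 in Sirt6mKO/mdx against mdx. Macrophage and leukocyte markers summed to 118 to 163 in control and mdx and to 274 and 238 in Sirt6mKO/mdx. In mdx Cd68 was called lower (-1.60) and Lyz2 higher (3.22), and against control Lyz2 was called higher in Sirt6mKO/mdx (3.75). Fibro-adipogenic markers summed to 21083 and 28002 in control, against 43762 and 38246 in mdx and 23208 and 32357 in Sirt6mKO/mdx. Col3a1, which was not called, held most of this sum, at 30817 and 26928 in mdx. Of the 9 markers, 3 were called higher in mdx, 1 lower in Sirt6mKO/mdx than in mdx (Col1a1, -1.08) and 1 higher than in control (Col1a2, 3.17). Ly6a, the gene of Sca1, was at 3 and 9 in control, against 79 and 21 in mdx and 65 and 15 in Sirt6mKO/mdx, and was called higher in mdx (2.73). Smooth muscle and pericyte markers summed to 1638 and 2777 in control, against 3702 and 3644 in mdx and 1640 and 2187 in Sirt6mKO/mdx. Of these 7 markers, Acta2 was called higher in mdx (1.18), and Tagln lower in Sirt6mKO/mdx than in mdx (-1.56) and in control (-1.38). Schwann markers summed to 23 to 81 over the 6 libraries. Erythroid markers summed to 56 and 19 in control, against 7 and 14 in mdx and 39 and 91 in Sirt6mKO/mdx, with 1 of 2 tested called, Hbb-bs (3.39 higher in Sirt6mKO/mdx than in mdx). Of the 11 MuSC markers, 1 was called in each comparison, Sdc4, the gene of syndecan-4. Its values were 7692 and 6224 in control, against 1100 and 1049 in mdx and 2753 and 2822 in Sirt6mKO/mdx, the same order as in Csrnp1.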

How the data were processed

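MuSC RNA was measured in 6 libraries of 3 groups (2 each), assigned by the labels. Per the study's methods, the authors used Reaper for trimming, STAR for alignment to GRCm38 and featureCounts for counts per Ensembl gene, without stating the use of strand. The submitters' processing notes name STAR 2.4.2a, featureCounts 1.4.5-p1 and DESeq2 1.6.0, and the methods name other versions of STAR and DESeq2. The deposited values are scores: read counts divided by a size factor per library, as DESeq2 does, and rounded to whole numbers by the authors. The DESeq2 test the authors used needs raw counts and was not run. Size factors, 0.537 to 1.53, were recovered from skipped and doubled whole numbers, giving 4397632 to 9745218 approximate reads per library. Columns without a sample numbered 0.

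limma 3.58.1 in R 4.3.3 was fitted to log2(value + 1) of all 6 libraries in one model with a prior variance following the mean. Tested genes had a mean of at least 5. A fold change on this scale understates the change of low genes. P-values are two-sided, with Benjamini-Hochberg adjustment over all tested genes. A gene was called at an adjusted p of at most 0.05 and an absolute log2 fold change of at least 1. The fit was tested on simulated data.

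The members and lists were chosen with earlier results of these data known. Text names all 8 members, at most 4 called genes per list with the largest change, the 5 genes most like Csrnp1 and most like Ikzf4 (1 of them is not reported here), label checks, and others said to be named after their values were seen; cell type markers were named likewise. Exon lengths and overlaps are from GENCODE M21, which held 98.5% of the identifiers, and promoter sequences from RefSeq. Alternatives varied the pseudocount, minimum mean, scaling, prior variance, groups in the fit, a replicate block and the libraries.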

Additional observations from a re-analysis of the deposited data

How the results depend on the processing

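Alternatives changed the pseudocount (0.1 and 10), the minimum mean (none and 50), the scaling, the prior variance, the groups in the fit, the replicate block and each library. Over these 16 alternatives, 11 of 128 member calls were lost in mdx against control, 10 of 128 in Sirt6mKO/mdx against mdx and 22 of 48 (3 members) in Sirt6mKO/mdx against control. In the last comparison 5 folds of members not called turned sign. The 5 were Ier2 (-0.31) and Ier3 (-0.24) with equal totals, Ier3 without control replicate 2 (-0.29, 1.01 without control replicate 1), and Gadd45b with equal upper quartiles (0.013) and without control replicate 1 (0.42, -0.45 without control replicate 2). One prior variance for all genes left 0 members called in Sirt6mKO/mdx against mdx, 0 of 3 against control and 20 of 81 list calls (each gene counted once per comparison), and called 0 genes of all tested against mdx, where 3156 had an unadjusted p under 0.05. Against control 0 members were called with no minimum mean and 1 with equal totals. Leaving out 1 library gave 7 to 8 members called in mdx, 7 to 8 in Sirt6mKO/mdx against mdx and 0 to 2 against control, where the 0 came from leaving out either library labelled Sirt6mKO/mdx, and 57 to 79 list calls. A lone library is then assumed to vary like the others, and the fit has fewer samples. With equal totals the share of higher calls over all genes went from 68.8% to 14.0% against mdx and from 65.9% to 14.5% against control. The cause was not tested. With the replicate block 8, 8 and 3 members and 84 list genes were called, so it changed no member's call. Replicate numbers are shared only as numbers, since the correlations of replicate differences between groups were -0.13, 0.01 and 0.12. Calls over all genes ran from 541 to 2415 in mdx against control, from 0 to 3411 in Sirt6mKO/mdx against mdx and from 87 to 3148 in Sirt6mKO/mdx against control. Leaving out 1 library gave 939 to 2356, 203 to 1475 and 213 to 1314 in the same order, so the shares of all genes called move with single libraries too. With 2 libraries a group and 12 reads behind Ikzf4 in mdx, depth limits that gene most.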
